A study of Mus musculus with 16 samples.

Results

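The comparison described here is between periaqueductal gray libraries labelled RGSz1 KO and libraries labelled wildtype when both came from mice given morphine. It was chosen by its labels and takes 8 of the 16 libraries of the series, 4 of each genotype, across all 18111 genes with enough reads to be tested. All libraries were polyA RNA from brain tissue of male mice, and each pooled punches from 2 animals, with 4 punches in a library. The remaining 8 libraries, 4 of each genotype from mice labelled naïve, are used only to show whether a difference was also present without morphine. The sources used here do not give the strain, the age, the dose and duration of morphine or the part of the gene that was removed, and no label names a vehicle-treated group. Values are CPM, the count of a gene relative to the library total (edgeR's cpm, with TMM-scaled totals of reads in genes), and folds are the libraries labelled KO over those labelled WT on the log2 scale, with a standard error (SE). A gene is called when its adjusted p (edgeR quasi-likelihood test, Benjamini-Hochberg) is under 0.05. In this pooled bulk tissue, fewer cells of a type and less RNA per cell cannot be told apart.

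RGSz1, encoded by Rgs20, is a regulator of G-protein signalling that speeds the return of Gαz and related inhibitory G proteins to their inactive state, and so shortens signals from receptors such as the mu opioid receptor. The periaqueductal gray is a midbrain region around the cerebral aqueduct that relays descending control of pain, and it is among the sites where opioids act and where tolerance to them develops. The series asked how RGSz1 and tolerance to morphine bear on gene activity there, and Wnt and beta-catenin signalling is examined as a pathway that the study's authors have connected with RGSz1.

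The targeted gene did not separate the labels. Rgs20 was at 14.4, 13.3, 11.9 and 12.7 CPM in WT libraries 1 to 4 under morphine and at 13.0, 12.0, 11.4 and 11.9 CPM in the libraries labelled KO. The groups overlapped, and the log2 difference was -0.11 (SE 0.07, adjusted p = 0.669), with a 95% interval for the level in the libraries labelled KO of 83.3% to 103% of WT. The counts cover the whole gene and exons were not counted separately here, so reads from exons outside a deleted part would be included. The genotype of the libraries is therefore taken from their labels alone, and every direction below is that of the libraries so labelled.

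Under morphine 96 of 18111 genes were called, which is 0.53% of those tested. Of these, 46 rose in the libraries labelled KO (0.254% of tested genes) and 50 fell (0.276%). The 2 groups did not overlap in any of the 96 called genes, against 954 genes (5.27%) whose groups did not overlap among all tested. Of the 96 genes, 18 differed by more than 2-fold (10 higher, 8 lower), and the median log2 fold change of all tested genes was -0.000915. By annotation 77 are protein-coding, 12 are pseudogenes and 5 are other noncoding genes, while 2 were not matched to the annotation. Of the calls, 30 held when any of the 8 compared libraries was left out and under all 8 other settings tried. Without KO library 4 the number of called genes was 49, without WT library 2 it was 57 and without KO library 2 it was 61.

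Libraries under morphine held 28423801 to 53877171 reads in genes for WT and 19077000 to 38887606 reads for those labelled KO. Midbrain transcription factors were present in all 8 compared libraries (Otx2 at 10.6 to 15.6 CPM and Gata3 at 20.3 to 26.8 CPM), and the cortical factor Emx1 stayed at or under 0.569 CPM. Over the whole forebrain list, WT library 4 stood apart, with a mean log2 level (centred over the 16 libraries) of 0.45 against -0.15 to 0.01 in the other 7. Libraries also differed in cell type markers beyond the labels, and whether the tissue taken differed was not tested. Ogn, a proteoglycan of meningeal fibroblasts, was at 12.4 and 28.9 CPM in KO libraries 1 and 3 but at 2.01 CPM in KO libraries 2 and 4, and between 1.69 and 2.50 CPM in WT. Tph2, the serotonin-synthesising enzyme of raphe neurons, was at 544 and 568 CPM in KO libraries 2 and 4 against 191 and 154 CPM in KO libraries 1 and 3 and 201 to 271 CPM in WT. No member of these marker lists was called (0 of 13 meningeal, 0 of 14 serotonergic), where 0.53% of all tested genes were. At that share, and with median SEs of 0.81 and 0.36, counts of 0 do not set these lists apart. The log2 fold change was positive in all 13 meningeal and in 13 of the 14 serotonergic markers. With KO library 3 left out 114 genes were called, and with KO library 1 left out 89.

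The genes that rose most clearly included a group on chromosome 19. Ide, the insulin-degrading enzyme, a zinc metalloprotease that cleaves insulin and amyloid beta, was at 60.5, 63.3, 59.7 and 61.1 CPM in WT and at 89.9, 121, 120 and 112 CPM in the libraries labelled KO. The lowest library labelled KO was far above the highest WT library, and the log2 fold change was 0.85 (SE 0.06, adjusted p = 2.45e-06). Btaf1, an ATPase that removes TATA-binding protein from DNA, went from 39.4 ± 1.80 to 65.3 ± 8.43 CPM (SD, n = 4; 0.72, SE 0.07, adjusted p = 7.85e-05). In both genes KO library 1 was the lowest of its group, at 89.9 CPM for Ide and 53.1 CPM for Btaf1. Fgfbp3, a secreted carrier of fibroblast growth factors, went from 3.99 ± 0.374 to 6.22 ± 0.970 CPM (0.63, SE 0.11, adjusted p = 0.00717), a call that was lost when library totals were thinned to that of the smallest (0.62, adjusted p = 0.107).

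Among the genes that fell, Dnah7b, an axonemal dynein heavy chain found in motile cilia, had the smallest p. It was at 30.6, 27.6, 31.4 and 24.5 CPM in WT and at 12.5, 12.2, 13.3 and 12.7 CPM in the libraries labelled KO, a log2 fold change of -1.17 (SE 0.08, adjusted p = 2.03e-07). The libraries labelled KO differed little from each other and all lay far under WT. A transcript of Dnah7b has a near-copy in Dnah7c (97.29% identical over 99.1% of its length), so the split of reads between them is uncertain. Hjurp, the chaperone that deposits the centromeric histone CENP-A, was at 197, 200, 192 and 191 CPM in WT and at 40.4, 41.4, 81.4 and 45.3 CPM in the libraries labelled KO (-1.91, SE 0.17, adjusted p = 9.80e-05). KO library 3 was well above the other libraries of its group, but still far under every WT library. Mcmdc2, a relative of the replicative helicase that acts in meiotic recombination, fell from 2.75 ± 0.519 to 0.308 ± 0.257 CPM (-3.28, SE 0.34, adjusted p = 8.28e-05).

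**Figure D1:**
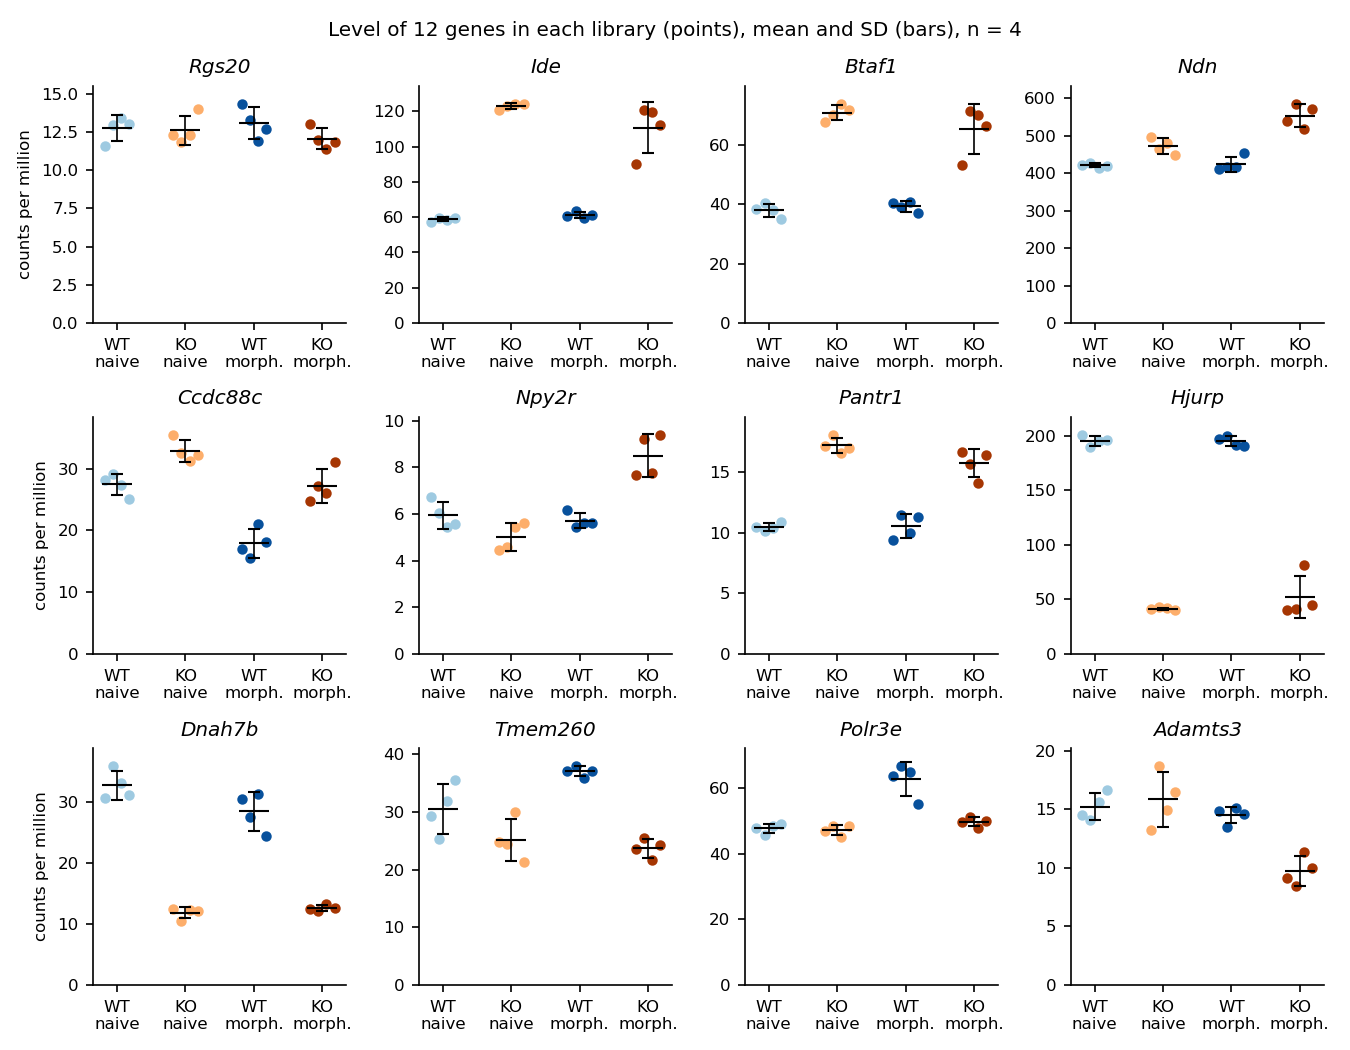
Level of 12 genes in CPM (vertical axes, from 0) in each of the 16 libraries (points), with the mean and SD of each group of 4 (bars). Rgs20 overlaps between genotypes, Ide, Btaf1 and Pantr1 are higher and Hjurp and Dnah7b lower in the libraries labelled KO in naïve and morphine groups, and Npy2r, Polr3e and Adamts3 separate only in the morphine pair.

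Many of these differences were also present without morphine. In the naïve libraries, which share no sample with the morphine ones, 164 genes were called between the genotypes (0.906% of tested), and 44 of the 96 were among them, all 44 in the same direction (23 higher, 21 lower). Groups did not overlap for 8.13% of tested genes there. The 44 genes are 45.8% of the morphine list and 26.8% of the naïve list. Naïve WT library 2 stood apart, with a mean log2 level of the meningeal list (centred over the 16 libraries) of 2.52. The other naïve WT libraries were at -0.56 to -0.29. Without library 2 of naïve WT, 80 naïve and 43 shared genes were called. Ide went from 58.7 to 123 CPM in the naïve groups, Btaf1 from 38.0 to 70.9, Hjurp from 195 to 41.4 and Dnah7b from 32.8 to 11.9. The median absolute log2 fold change of the 44 genes was 0.68 under morphine and 0.72 in naïve libraries. Of the 18 genes that differed by more than 2-fold, 15 belonged to this shared set.

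Several other genes of the shared set also differed between the genotypes. Pantr1, a noncoding RNA beside the neural transcription factor gene Pou3f3, rose from 10.5 ± 0.998 to 15.7 ± 1.16 CPM (0.58, SE 0.07, adjusted p = 0.000173). Vxn, vexin, a promoter of neuronal differentiation, rose from 33.0 ± 1.41 to 44.7 ± 2.40 CPM (0.44, SE 0.06, adjusted p = 0.000631). Lactb2, a mitochondrial ribonuclease, rose from 14.8 ± 1.21 to 20.3 ± 1.31 CPM (0.46, SE 0.07, adjusted p = 0.00310). For these genes every library labelled KO was above every WT library. Acp1, the low molecular weight protein tyrosine phosphatase, was steady at 31.4 to 32.8 CPM in the libraries labelled KO and spread from 17.9 to 26.3 CPM in WT (0.57, SE 0.09, adjusted p = 0.00650). Ntn4, a secreted netrin of basement membranes, fell from 14.8 ± 1.34 to 10.3 ± 1.01 CPM (-0.53, SE 0.08, adjusted p = 0.00388). Serhl, a serine hydrolase-like gene, fell from 4.05 ± 0.466 to 2.39 ± 0.175 CPM (-0.76, SE 0.12, adjusted p = 0.00465), but was not called after thinning (adjusted p = 0.130). The calls of Adi1, an enzyme of the methionine salvage cycle (-0.83, SE 0.15, adjusted p = 0.0219), and Trappc6a, a subunit of a vesicle tethering complex (-0.56, SE 0.11, adjusted p = 0.0215), did not hold each time a single library was left out. The first was lost without WT library 2, WT library 4 or KO library 4 (adjusted p up to 0.0770), with only the compared groups and with the replicate block (up to 0.150). The second was lost without WT library 2 or KO library 2 (up to 0.0895) and with only the compared groups (0.0594).

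The other 52 genes were called under morphine only, with a median absolute log2 fold change of 0.44 there and 0.13 in the naïve libraries. They were picked for passing under morphine and failing in naïve libraries, so a larger morphine value follows from that choice. Rplp0, among the 52, was just over the threshold in naïve libraries (-0.66, adjusted p = 0.0519), without overlap of the groups. In the naïve groups 44 of the 52 had the same sign and 8 the opposite sign, where 46.1% of all tested genes had the same sign. Whether the genotype difference itself differed between morphine and naïve was tested with an interaction term. No gene passed (edgeR quasi-likelihood test, 0 of 18111, with 2200 at an unadjusted p under 0.05, 12.1% of tested, and 107 called by DESeq2), and the smallest adjusted p among the 96 genes was 0.106. The interaction count was also not steady, with 56 genes called when KO library 3 was left out and 16 without WT library 3. For the genes described next, the interaction did not pass in the edgeR fit of all 16 libraries.

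**Figure D2:**
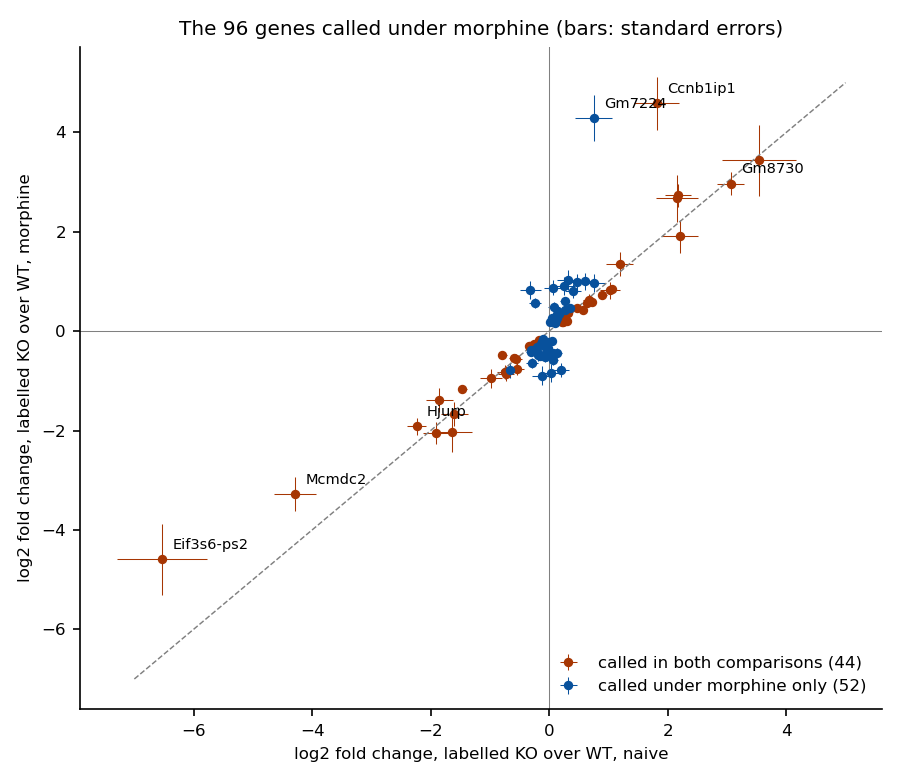
Log2 fold change of the 96 called genes in the morphine groups (vertical axis) against the same in the naïve groups (horizontal axis), with standard errors; the dashed line marks equal values. The 44 genes called in both comparisons lie in the 2 quadrants of equal sign. Most of the 52 others, picked for not being called in naïve libraries, lie near 0 on the naïve axis.

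Ndn was called under morphine only, with a p second there to that of the pseudogene Gm7224 (below). It encodes necdin, a growth suppressor of postmitotic neurons that is expressed from the paternal allele. Ndn was at 411, 416, 416 and 454 CPM in WT and at 541, 586, 517 and 572 CPM in the libraries labelled KO (0.38, SE 0.04, adjusted p = 9.72e-05). In naïve libraries its means were 421 and 472 CPM (adjusted p = 0.0767), without overlap of the groups. Ccdc88c, which encodes Daple, a Dishevelled-binding protein that acts in Wnt signalling and also activates inhibitory G proteins, was at 17.0, 15.5, 21.04 and 18.1 CPM in WT and at 24.7, 27.2, 26.0 and 31.1 CPM in the libraries labelled KO (0.60, SE 0.09, adjusted p = 0.00266). The naïve means of Ccdc88c were 27.5 CPM in WT and 32.8 CPM in the libraries labelled KO, so its lowest group was WT under morphine. Its naïve groups did not overlap either (0.26, adjusted p = 0.165).

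Npy2r, the Y2 receptor for neuropeptide Y, an inhibitory G-protein-coupled receptor, was at 6.16, 5.44, 5.64 and 5.63 CPM in WT and at 7.66, 9.20, 7.75 and 9.41 CPM in the libraries labelled KO (0.57, SE 0.10, adjusted p = 0.0103). In the naïve groups its means were 5.94 and 5.03 CPM, a log2 difference of -0.24, and its interaction had an adjusted p of 0.106. Leaving out KO library 4 ended the call of Npy2r (adjusted p = 0.0571). Kcnj11, the pore subunit Kir6.2 of the ATP-sensitive potassium channel, fell from 14.0 ± 0.972 to 9.99 ± 1.33 CPM (-0.49, SE 0.10, adjusted p = 0.0264). That call was lost without any 1 of 6 libraries (WT 1, 2 and 4, KO 1, 2 and 4), with adjusted p up to 0.0939.

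Further genes rose from low levels. Opn4, melanopsin, the photopigment of intrinsically photosensitive retinal ganglion cells, was at 1.07 to 1.67 CPM in WT and 2.22 to 3.07 CPM in the libraries labelled KO (1.00, SE 0.17, adjusted p = 0.00961, and 0.110 after thinning). Pzp, a protease inhibitor of the alpha-2-macroglobulin family, went from 1.78 ± 0.168 to 3.56 ± 0.491 CPM (0.99, SE 0.16, adjusted p = 0.00632). Zfp488, a transcription factor of the oligodendrocyte lineage, went from 6.18 ± 0.693 to 10.9 ± 2.27 CPM (0.81, SE 0.14, adjusted p = 0.0116). All 3 were separate between the groups. In naïve libraries their log2 differences had the same sign, at 0.60 (adjusted p = 0.0833), 0.47 (0.190) and 0.39 (0.213) in that order. The naïve groups did not overlap for Opn4 and overlapped for Pzp and Zfp488. Gstm6, a glutathione transferase (0.97, SE 0.18, adjusted p = 0.0219), and Emp1, an epithelial membrane protein (0.91, SE 0.18, adjusted p = 0.0219), also rose. Their calls did not hold each time a single library was left out. Gstm6 was lost without WT 2, 3 or 4 or KO 4 (adjusted p up to 0.0802) and Emp1 without WT 2, 3 or 4 or KO 2 or 3 (up to 0.0843). Gstm6 was also lost with only the compared groups and with the replicate block (up to 0.124) and Emp1 when thinned (0.0565). The naïve log2 differences were 0.75 for Gstm6 (adjusted p = 0.0637), without overlap of the groups, and 0.26 for Emp1 (adjusted p = 0.547).

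Polr3e, a subunit of RNA polymerase III, fell under morphine only and was at 63.6, 66.8, 64.9 and 55.1 CPM in WT and at 49.6, 51.3, 47.9 and 49.9 CPM in the libraries labelled KO (-0.33, SE 0.05, adjusted p = 0.00255). The naïve means of Polr3e were 47.7 and 47.2 CPM, so that WT under morphine was the high group. Adamts3, the protease that processes procollagen II and matures VEGF-C, was at 14.9, 13.5, 15.1 and 14.6 CPM in WT and at 9.14, 8.40, 11.3 and 10.0 CPM in the libraries labelled KO (-0.58, SE 0.10, adjusted p = 0.00961). Its naïve means were 15.2 and 15.8 CPM, so that the libraries labelled KO under morphine were the low group. Tmem260, an O-mannosyltransferase, was within 35.9 to 38.0 CPM in WT and 21.6 to 25.5 CPM in the libraries labelled KO (-0.64, SE 0.10, adjusted p = 0.00694). Its naïve log2 difference was -0.29 (adjusted p = 0.209), with overlap of the groups.

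Smaller falls with no overlap were seen in Commd6, a COMM-domain protein (25.6 ± 2.41 to 18.8 ± 0.808 CPM, -0.45, SE 0.07, adjusted p = 0.00255). Cit, citron kinase, which acts in cytokinesis, went from 218 ± 9.08 to 177 ± 9.54 CPM (-0.30, SE 0.05, adjusted p = 0.00463). Gpt, alanine aminotransferase, went from 17.2 ± 1.44 to 12.8 ± 1.26 CPM (-0.43, SE 0.07, adjusted p = 0.00961). Klhl42, a substrate adaptor of a cullin ubiquitin ligase, went from 39.7 ± 3.51 to 28.2 ± 1.66 CPM (-0.50, SE 0.08, adjusted p = 0.00801). The naïve log2 differences were -0.18 (adjusted p = 0.209) for Commd6, -0.09 (0.399) for Cit, 0.06 (0.767) for Gpt and -0.15 (0.435) for Klhl42. The naïve groups did not overlap for Commd6 and overlapped for the others. The morphine calls of these 4 genes held without any of the 8 libraries. The calls of Rtkn2 (-0.79, SE 0.14, adjusted p = 0.0103), Tex52 (-0.89, SE 0.19, adjusted p = 0.0311) and Setdb2, a histone methyltransferase (-0.51, SE 0.11, adjusted p = 0.0278), did not. Rtkn2 was lost without KO library 4 (adjusted p = 0.0502), Tex52 without any library except KO 1 (up to 0.151) and Setdb2 without any except WT 4 and KO 3 (up to 0.107). Tex52 and Setdb2 were also lost with the replicate block and when thinned.

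Some called genes lay near each other. Of the 96, 37 had another called gene within 1 Mb, and 14 were on chromosome 14, 2.19% of the 638 genes tested there, against 0.53% of all. The number within 1 Mb in other sets of 96 tested genes was not counted, so the 37 have no background. Chromosome 1, which carries Rgs20, held 12 called genes, 1.15% of the 1045 tested there, and all 12 were also called in the naïve libraries. Chromosome 5 held 14 called genes (1.26% of 1113 tested), chromosome 12 held 8 of 641 tested and chromosome 7 held 12 (0.884% of 1358 tested). Of these, 6, 3 and 2 in that order were also called in the naïve libraries. The share called on chromosome 1 was thus under those of chromosomes 5, 12 and 14. Of 42 tested genes within 10 Mb of Rgs20, 5 were called. None was called on chromosomes 9, 11, 16, X or Y, with 1012, 1486, 540, 655 and 7 genes tested there.

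Most of these stretches also held uncalled genes. On chromosome 19, Fgfbp3, Btaf1 and Ide were called among 7 tested genes (GRCm38 chr19:36917550-37337852). The other 4 were not called, with values from -0.01 to 0.98, the highest in the pseudogene Rpl10-ps6 (SE 0.37, adjusted p = 0.373), which lies inside Ide. On chromosome 1, Adhfe1, a hydroxyacid-oxoacid transhydrogenase, fell (-0.48, SE 0.08, adjusted p = 0.00961), Vxn rose and Mcmdc2 fell among 8 tested genes (chr1:9547948-9942085). On chromosome 14, 3 of 4 tested neighbours rose (chr14:50789248-50870560), while Gm26782, which overlaps the start of Tep1 on the opposite strand, had a log2 difference of -1.56 (SE 0.35, adjusted p = 0.0950). Ccnb1ip1, a ubiquitin ligase needed for meiotic crossovers, was at 0.0324, 0.0356, 0.113 and 0.0284 CPM in WT and at 1.17, 1.80, 2.06 and 1.21 CPM in the libraries labelled KO (4.58, SE 0.53, adjusted p = 0.000186). It was thus close to undetected in WT under morphine and present in every library labelled KO. In the naïve groups Ccnb1ip1 was at 0.322 CPM in WT and 1.24 CPM in those labelled KO (1.81, adjusted p = 0.0297). By its mean, WT under morphine was thus the low group of Ccnb1ip1. Naïve WT library 1 was at 0 CPM, under every WT library under morphine, and the other naïve WT libraries were at 0.369 to 0.544 CPM. Parp2, a DNA-damage-activated ADP-ribosyltransferase that lies beside it on the opposite strand, went from 13.7 ± 0.600 to 17.3 ± 0.602 CPM (0.33, SE 0.06, adjusted p = 0.00809, and 0.0709 after thinning). Tep1, a telomerase-associated protein, was just under the threshold (0.27, SE 0.06, adjusted p = 0.0499) and was lost without any library except WT 3 (up to 0.177) and under 5 of the 8 other settings (up to 0.512).

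**Figure D3:**
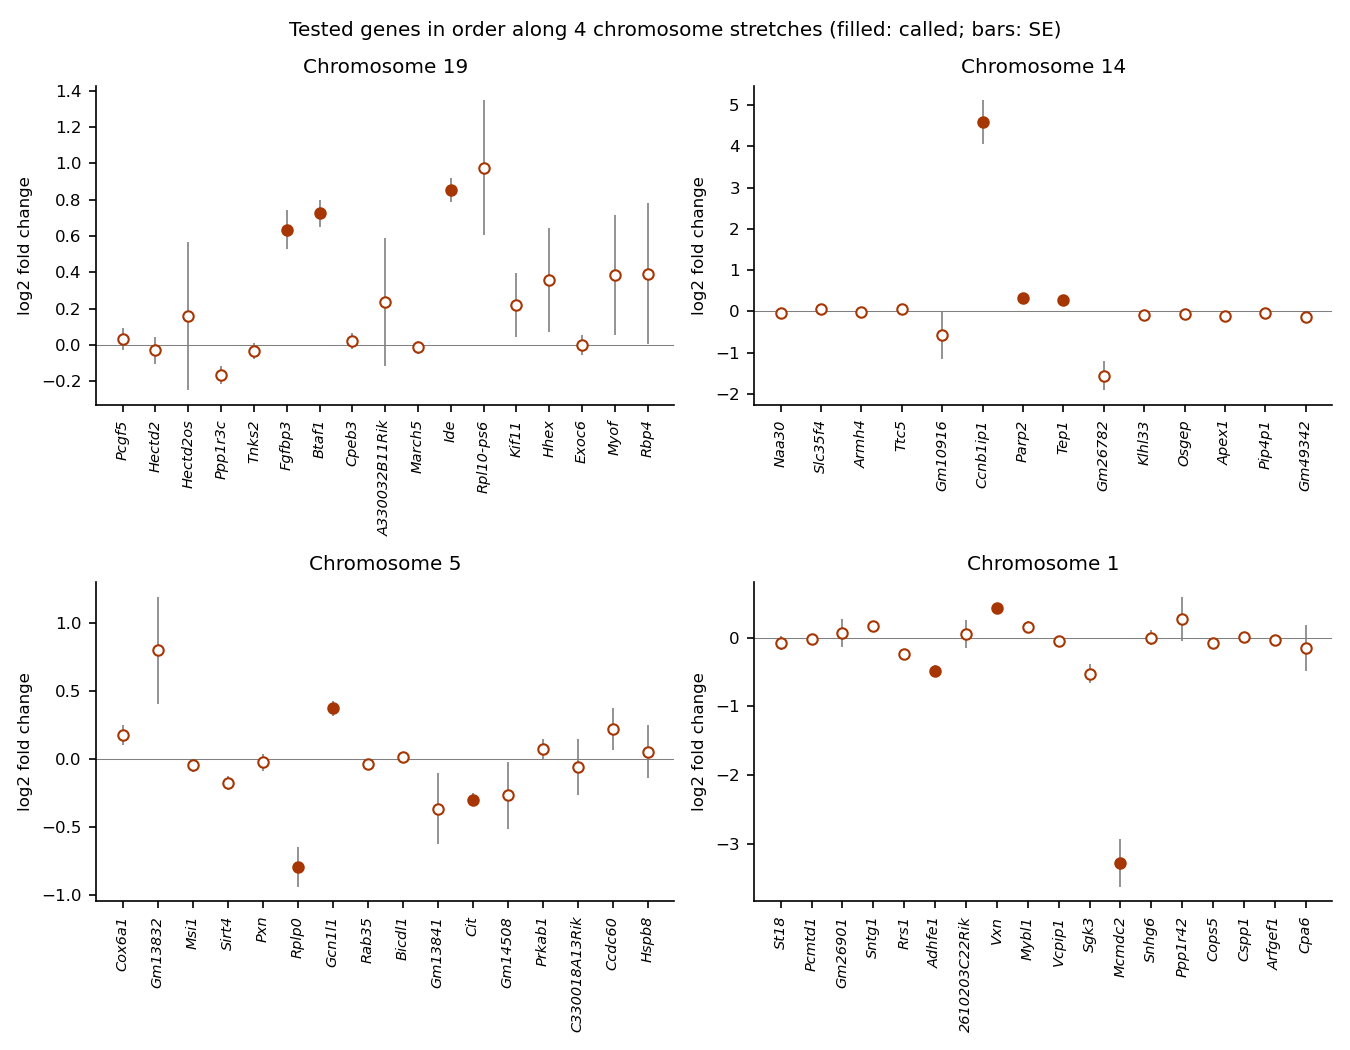
Log2 fold change under morphine with its standard error (vertical axes) for tested genes in their order along 4 stretches of chromosomes 19, 14, 5 and 1 (horizontal axes, not to scale); filled points are called genes. Fgfbp3, Btaf1 and Ide are higher with uncalled genes between them, Ccnb1ip1 stands at 4.58, and Rplp0 and Gcn1l1 lie side by side with opposite signs.

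A share of the called genes have a near-identical copy in the genome. Pseudogenes made up 12.5% of the called genes and 4.59% of those tested, and 10 of the 12 were also called in the naïve libraries. For 10 called genes a transcript search found a tested protein-coding gene alike over at least 90% of the length at an identity of at least 90%. The stretches below show how little separates such transcripts. Each is 61 bases from the aligned transcripts (GENCODE M21, GRCm38, within the coding part of the parent gene), with the bases that differ in capitals. A read that covers none of the capitals fits both genes equally well. Reads that HTSeq listed as not uniquely aligned made up 24.1% to 26.5% of each library and were counted for no gene. How many of them came from these copies was not tested.
Gm8730: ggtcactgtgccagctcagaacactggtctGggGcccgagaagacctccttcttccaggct
Rplp0: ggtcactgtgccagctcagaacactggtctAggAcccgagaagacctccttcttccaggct
Gm13123: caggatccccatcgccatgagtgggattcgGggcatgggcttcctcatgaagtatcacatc
Gcn1l1: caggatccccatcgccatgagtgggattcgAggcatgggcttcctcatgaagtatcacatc
Gm6768: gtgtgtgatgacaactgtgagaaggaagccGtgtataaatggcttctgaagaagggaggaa
Ncoa4: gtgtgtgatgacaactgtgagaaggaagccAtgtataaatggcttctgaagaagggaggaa
Gm15920: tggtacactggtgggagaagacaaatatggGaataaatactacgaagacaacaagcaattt
Ndufa12: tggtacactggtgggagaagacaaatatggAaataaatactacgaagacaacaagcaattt

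Gm8730 (98.74% identical to Rplp0 over 954 bases, 12 differing positions) was at 0.973, 1.46, 1.31 and 1.39 CPM in WT and at 8.10, 10.5, 12.6 and 9.53 CPM in the libraries labelled KO (2.97, SE 0.23, adjusted p = 5.79e-06). Gm9625, a further copy (97.38%), rose in the same way from 1.56 ± 0.253 to 10.4 ± 2.22 CPM (2.73, SE 0.24, adjusted p = 2.22e-05). Rplp0 itself, a protein of the large ribosomal subunit that is often used as a reference gene, was at 86.9, 97.1, 92.0 and 99.9 CPM in WT and at 64.3, 39.9, 46.7 and 64.1 CPM in the libraries labelled KO (-0.79, SE 0.15, adjusted p = 0.0298). The gene and its copies thus moved in opposite directions. The 3 together summed to 96.8 ± 6.05 CPM in WT and 74.3 ± 9.29 CPM in the libraries labelled KO (SD, n = 4). Rplp0 alone went from 94.0 to 53.7 CPM. The sums were 89.2 to 103 CPM in WT and 62.1 to 82.2 CPM in the libraries labelled KO, without overlap. Both copies were taken because they were called, and both rose, so a smaller gap in the sum follows from that choice. Other genes alike to these copies were not summed, and whether reads moved between them was not tested. The call of Rplp0 was lost without WT 1, 2, 3 or 4 or KO 2 or 3 (adjusted p up to 0.0946), and also without a filter, with only the compared groups, with the replicate block and when thinned (up to 0.159), while those of both copies held.

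Gm6768 (99.89% identical to Ncoa4) and Ncoa4, a coactivator and the receptor for ferritin autophagy, moved in opposite directions too. Gm6768 went from 3.45 ± 0.195 to 7.06 ± 1.66 CPM (1.03, SE 0.20, adjusted p = 0.0230) and Ncoa4 from 28.7 ± 1.12 to 23.9 ± 1.58 CPM (-0.26, SE 0.06, adjusted p = 0.0353). Their sum was 32.2 ± 0.938 CPM in WT and 30.9 ± 1.70 CPM in the libraries labelled KO, values that overlap. Both calls were lost without any 1 of 7 libraries (all except KO 2 for Gm6768 and all except KO 1 for Ncoa4), with adjusted p up to 0.0928 and 0.146, and each under 4 of the 8 other settings (up to 0.141 and 0.472). Gm13123 (99.39% identical to Gcn1l1) and Gcn1l1, the ribosome-bound activator of the kinase GCN2, rose together. Gcn1l1 was at 112, 115, 129 and 115 CPM in WT and at 141, 161, 156 and 153 CPM in the libraries labelled KO (0.37, SE 0.06, adjusted p = 0.00340). Gm13123 stayed under 1 CPM in all 8 libraries (1.90, SE 0.34, adjusted p = 0.0103, and 0.0550 without KO library 4).

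For other copies the parent gene was not called. Gm6969 (97.95% identical to Cox7a2l) fell from 5.72 ± 1.94 to 1.38 ± 0.129 CPM (-2.05, SE 0.23, adjusted p = 0.000170), with a log2 difference of 0.10 in Cox7a2l (adjusted p = 0.531). Gm15920 (99.50% identical to Ndufa12, a subunit of respiratory complex I) fell from 6.89 ± 1.84 to 2.17 ± 0.391 CPM (-1.67, SE 0.24, adjusted p = 0.00388), with -0.05 in Ndufa12 (adjusted p = 0.841). Gm5900 (99.47% identical to Lamtor3, a lysosomal scaffold of mTORC1) fell by 1.39 on the log2 scale (SE 0.24, adjusted p = 0.00984, and 0.107 after thinning), with 0.07 in Lamtor3 (adjusted p = 0.739). Gm7224 (96.12% identical to Fbxo34) was at 0.949 to 1.41 CPM in the libraries labelled KO and between 0 and 0.0853 CPM in WT, with -0.17 in Fbxo34 (SE 0.04, adjusted p = 0.121), which was at 33.4 to 34.9 CPM in WT and 29.3 to 31.5 CPM in the libraries labelled KO, without overlap. In the naïve groups Gm7224 was at 0.514 CPM in WT and 0.814 CPM in those labelled KO, so WT under morphine was its low group. Gm4076 and Gm11407, which resemble the mitochondrial gene mt-Nd5 at 95.18% and 92.42% identity, were called with small steps of 0.18 (SE 0.04, adjusted p = 0.0333) and 0.24 (SE 0.05, adjusted p = 0.0194). All 37 mitochondrial genes are listed at 0 in every library, and how reads of these copies were assigned was not tested. Leaving out single libraries ended both calls: 6 of 8 for Gm4076 (all except WT 3 and KO 1, adjusted p up to 0.124), as did fitting only the compared groups or the replicate block (up to 0.102), and 3 for Gm11407 (WT 1, WT 2 and KO 4, up to 0.0760).

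**Figure D4:**
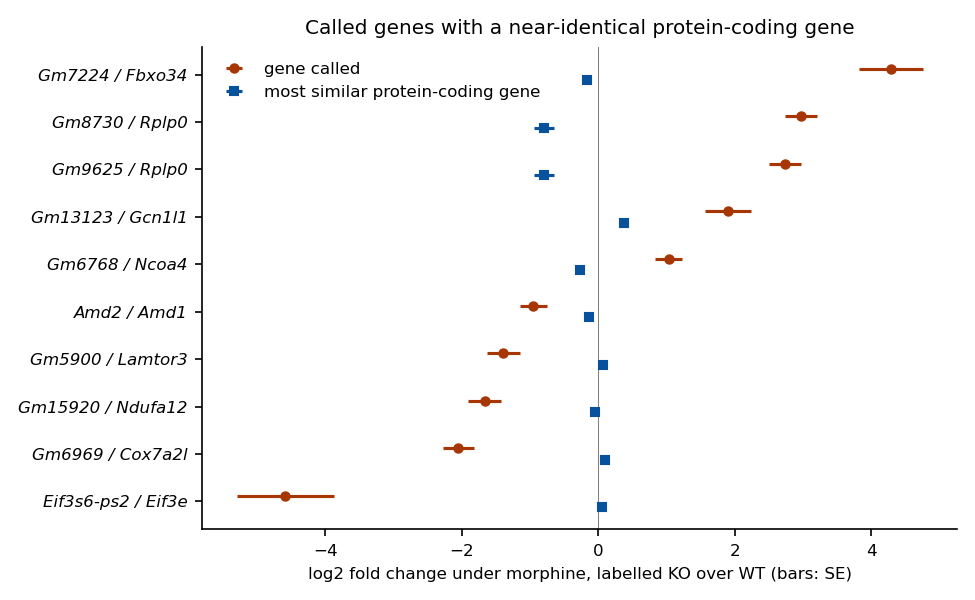
Log2 fold change under morphine with its standard error (horizontal axis) for 10 called genes (circles) and for the most similar protein-coding gene of each (squares). Gm8730, Gm9625 and Gm6768 lie opposite to Rplp0 and Ncoa4, and the squares of the others except Gcn1l1 are uncalled and within 0.2 of 0.

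Gene lists for the pathways and cells of interest held a single called gene between them. Over 41 lists, 1 of 714 tested genes was called, where 0.53% of all tested genes were. At that share lists of this size hold few or no called genes, so the counts of 0 below do not set a list apart. That gene was Cd44, a hyaluronan receptor and a target of Wnt signalling, at 1.10, 1.35, 1.24 and 1.19 CPM in WT and 2.31, 1.69, 2.46 and 2.22 CPM in the libraries labelled KO (0.83, SE 0.18, adjusted p = 0.0421). Among the compared libraries, the call was lost without any except KO 2, with adjusted p up to 0.127, and it was lost with voom, with the replicate block and when thinned (up to 0.116). In naïve libraries the log2 difference of Cd44 was -0.32 (adjusted p = 0.452).

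The Wnt lists covered ligands, receptors, secreted inhibitors, intracellular components and target genes, 128 tested genes in all. Of the 128, Cd44 among them, 15 had an unadjusted p under 0.05 (11.7%), against 9.64% of all tested genes. Of these 11 were higher and 4 lower, where 4.4% and 5.23% of all tested genes were, and the median log2 fold change of the 128 was 0.02. Among ligands, 0 of 19 were called, and Wnt11 was at 0.995 ± 0.119 CPM in WT and 1.47 ± 0.183 CPM in the libraries labelled KO (adjusted p = 0.317). Among receptors, 0 of 29 were called. Lgr6, a receptor for R-spondins, had a log2 difference of 0.64 (SE 0.18, adjusted p = 0.170) and Fzd2, a Wnt receptor, of -0.29 (SE 0.13, adjusted p = 0.500). Of the inhibitors, 0 of 19 were called, with 0.48 (SE 0.13, adjusted p = 0.150) in Rnf43, a ligase that removes Wnt receptors from the surface, and -0.45 (SE 0.13, adjusted p = 0.205) in Sfrp1, a secreted Wnt-binding protein.

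None of 40 intracellular components was called, and none had an unadjusted p under 0.05. Ctnnb1, beta-catenin itself, was at 493, 472, 453 and 457 CPM in WT and at 532, 474, 454 and 455 CPM in the libraries labelled KO. The log2 difference was 0.03 (SE 0.05, adjusted p = 0.898), with a 95% interval of 94.5% to 111% of the WT level. Among 30 targets, Axin2, the common readout of the pathway, overlapped between the groups at 18.8 ± 1.91 and 19.6 ± 3.44 CPM (0.07, SE 0.17, adjusted p = 0.933), with KO library 1 alone at 24.7 CPM. Its interval of 81.9% to 135% leaves room for a modest difference. Id2 (0.24, SE 0.06, adjusted p = 0.118) and Sox9 (0.37, SE 0.14, adjusted p = 0.390), transcription factors that also respond to other signals, did not pass the test. DESeq2 called Id2 and Sfrp1.

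Of the 8 tested opioid receptors and peptides none was called (0.53% of all tested genes were), and 3 had an unadjusted p under 0.05, all higher (37.5% against 4.4% of all tested genes). Oprm1, the mu receptor on which morphine acts, was at 12.2, 10.3, 13.8 and 10.5 CPM in WT and at 11.1, 12.5, 9.91 and 11.2 CPM in the libraries labelled KO. The groups overlapped, with a log2 difference of -0.07 (SE 0.09, adjusted p = 0.859) and an interval of 83.1% to 109% of WT. Oprk1, the kappa receptor, was at 22.9 ± 0.967 and 28.4 ± 3.75 CPM (0.32, SE 0.11, adjusted p = 0.322), and its ligand precursor Pdyn at 7.36 ± 1.34 and 10.9 ± 3.00 CPM (0.57, SE 0.26, adjusted p = 0.511). Oprl1, the nociceptin receptor, was at 131 ± 4.09 and 139 ± 6.76 CPM (0.09, SE 0.04, adjusted p = 0.464). Oprd1, the delta receptor (-0.19, SE 0.16, adjusted p = 0.750), and Penk, the enkephalin precursor (0.09, SE 0.06, adjusted p = 0.686), overlapped between the groups.

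None of 18 tested RGS genes and none of 52 genes of opioid signalling was called, beside 0.53% of all tested genes. The nearest relatives of Rgs20 in the RZ subfamily overlapped between the groups. Rgs17 was at 259 ± 8.55 CPM in WT and 270 ± 14.5 CPM in the libraries labelled KO (0.06, SE 0.04, adjusted p = 0.687) and Rgs19 at 15.1 ± 0.762 and 14.9 ± 0.950 CPM (-0.02, SE 0.06, adjusted p = 0.963). Gnaz, which encodes Gαz, was at 76.8 ± 3.15 and 77.7 ± 3.66 CPM (0.02, SE 0.04, adjusted p = 0.948), with an interval of 94.99% to 108% of WT. Outside these lists, 4 channel or receptor genes that the edgeR fit did not call were called by DESeq2. Kcnn2, a calcium-activated potassium channel, had a log2 difference of -0.35 (SE 0.08, adjusted p = 0.0632). Grm3, a metabotropic glutamate receptor, was at 46.7 ± 2.56 and 40.2 ± 1.43 CPM (-0.22, SE 0.05, adjusted p = 0.0642). The GABA-A receptor subunit genes Gabre (0.38, SE 0.09, adjusted p = 0.0916) and Gabra2 (0.71, SE 0.19, adjusted p = 0.188) were separate between the groups.

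No member of the lists of hormone response or of cell types was called. Of 35 genes induced by glucocorticoids, 30 had a negative log2 fold change and 11 an unadjusted p under 0.05, all lower (31.4% against 5.23% of all tested genes), with a median of -0.17 and 0 called. Pdk4, a kinase that inhibits pyruvate dehydrogenase, was at 36.9, 39.8, 39.9 and 53.0 CPM in WT and at 18.8, 28.1, 34.4 and 17.4 CPM in the libraries labelled KO (-0.81, SE 0.21, adjusted p = 0.145). Ddit4, an inhibitor of mTORC1, was at 70.7 ± 4.69 and 55.3 ± 7.43 CPM (-0.36, SE 0.09, adjusted p = 0.140). KO library 3 was the one nearest to WT for both genes, at 34.4 and 64.2 CPM. Over the whole list, its mean log2 level (centred over the 16 libraries) was 0.493, above the 0.370 to 0.489 of WT, while the other 3 libraries labelled KO were at 0.09 to 0.16. Ddit4 and Pdk4 were called by DESeq2 and by edgeR when KO library 3 was left out. Klf15 (-0.23, SE 0.07, adjusted p = 0.176) and Arrdc2 (-0.43, SE 0.13, adjusted p = 0.227) did not pass either. In the naïve libraries the median of the list was -0.03. No immediate-early gene of 39 tested was called.

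All 12 oligodendrocyte markers had a negative log2 fold change, with a median of -0.26, 4 at an unadjusted p under 0.05 (33.3% against 5.23% of all tested genes) and 0 called. Mog, a protein of the outer myelin surface, was at 115, 127, 115 and 118 CPM in WT and at 91.9, 87.7, 99.7 and 78.5 CPM in the libraries labelled KO (-0.41, SE 0.15, adjusted p = 0.362). Ugt8a, the enzyme that makes myelin galactolipids, was at 118 ± 8.49 and 88.0 ± 6.92 CPM (-0.42, SE 0.13, adjusted p = 0.243). Mog and Ugt8a were called when only the compared groups were fitted, and Ugt8a by DESeq2. The groups did not overlap for either gene, and the naïve median of the list was 0.23, of the opposite sign. Naïve WT library 2 stood apart there, with a mean log2 level of the list of -0.42. The other naïve WT libraries were at 0.02 to 0.28 and the naïve libraries labelled KO at 0.11 to 0.38. The 13 meningeal markers had a median of 1.254, and their levels were high in KO libraries 1 and 3, as given for Ogn. The part of these markers in the called genes was not tested.

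**Figure D5:**
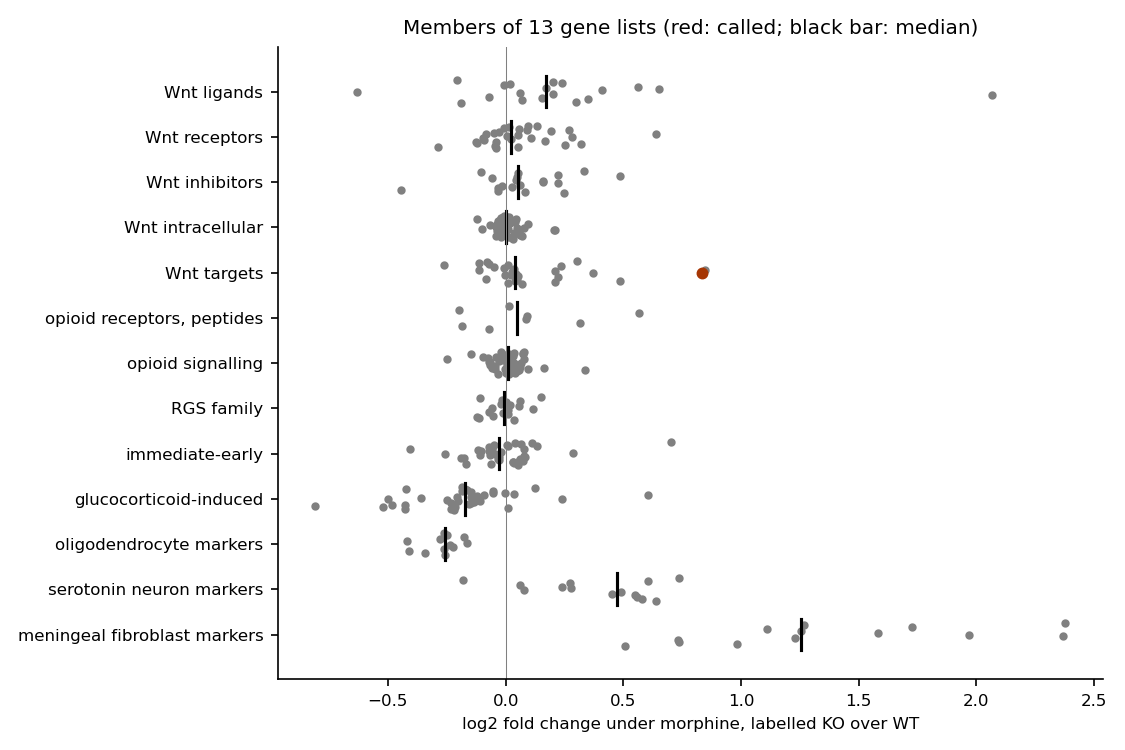
Log2 fold change under morphine (horizontal axis) of each tested member of 13 gene lists (points), with the list's median (black bars) and called genes in red. Cd44 among the Wnt targets is called, the intracellular Wnt, opioid and RGS lists centre on 0, the oligodendrocyte median is -0.26 and the meningeal median 1.254.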

How the data were processed

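Reads per gene were deposited by the authors as raw counts, for which the submitters' processing notes list HTSeq, limma and mm10. The sources used here name neither the aligner nor the annotation release. Libraries were made with an unstranded kit (TruSeq RNA v2, per the labels' protocols), so a read where 2 genes overlap on opposite strands could come from either. Rows that name no gene took 38.2% to 40.6% of reads and were left out. Of 38924 identifiers, 37607 matched GENCODE M21 (GRCm38), which gave symbols and positions.

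All 16 libraries (4 groups of 4, by title) were fitted together with edgeR 4.0.16 in R 4.3.3: TMM scaling, filterByExpr with a minimum count of 10, the robust quasi-likelihood test and Benjamini-Hochberg adjustment over 18111 genes. The code was tested on simulated data. Replicates are separate pools of animals per the labels. No libraries were alike within sampling noise. Precision rests on 4 libraries a group.

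The members and gene lists were chosen with earlier results of these data known. Named genes are, among called genes with mean log2 CPM of at least 1 that are not predicted genes or pseudogenes, the 12 largest changes in each direction and the 10 smallest p, the 12 smallest p among genes called in both genotype comparisons, and members of the lists. Adhfe1, Gpt, Cit, Klhl42, Kcnj11, Parp2, Tep1, Gcn1l1, Ncoa4, Gm26782, Rpl10-ps6 and the copies named were picked after their values were seen. Alternatives were DESeq2 1.42.0 and its size factors, limma-voom 3.58.1, other filters, the compared groups alone, a replicate block, thinning to the smallest library and leaving out each library.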

Additional observations from a re-analysis of the deposited data

Results flagged for a closer look

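In groups of 4 libraries, 8 of the 176 group values examined had 1 library further from the rest than Dixon's criterion allows, about the share that chance gives (1 in 20). Among WT libraries under morphine, Ndn was at 454 CPM in library 4 against 411 to 416 in the others, and Cit at 231 CPM in library 4 against 211 to 214. Trappc6a was at 6.05 CPM in WT library 2 against 4.87 to 4.92, and Commd6 at 29.2 CPM in the same library against 24.2 to 24.7. Ccnb1ip1 was at 0.113 CPM in WT library 3 against 0.0284 to 0.0356. Among the libraries labelled KO, Hjurp was at 81.4 CPM in library 3 against 40.4 to 45.3, Adi1 at 29.3 CPM in library 2 against 41.6 to 44.0, and Axin2 at 24.7 CPM in library 1 against 17.2 to 18.4.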

How the results depend on the processing

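The 96 calls under morphine became 202 with DESeq2, which held all 96, and between 65 (thinned) and 109 (no filter) under the other settings. Of the 96, 55 were called when thinned, 66 with only the compared groups and 89 without a filter. With 1 library left out they ranged from 49 to 129. The 164 naïve calls became 376 with DESeq2, 89 with the replicate block, 94 when thinned and 68 to 210 with 1 library left out. The 44 shared calls became 86 with DESeq2, 24 with only the compared groups, 25 when thinned and 29 to 45 with 1 library left out. The interaction count of 0 became 1 without a filter, 107 with DESeq2 and 0 to 56 with 1 library left out. Called list genes (1) became 2 without a filter, 10 with DESeq2, 0 with voom, 4 with only the compared groups, 1 with the replicate block (Gabra2, not Cd44), 1 when thinned (Kcnn2, not Cd44) and 0 to 5 with 1 library left out. With 1 library left out, log2 differences near 0 changed sign for Rgs19 (-0.0612 to 0.0197), Gnaz (-0.00661 to 0.0504), Axin2 (-0.0663 to 0.137), Ctnnb1 (-0.0213 to 0.0594) and Oprm1 (-0.122 to 0.0247), Axin2 and Ctnnb1 only without KO library 1. The cause was not tested. Replicate numbers did not pair the morphine libraries (correlations of 0.13, -0.01, -0.03 and -0.00 for numbers 1 to 4), and 1 of 4 libraries was most like its own number; the replicate block left 75 calls. How depth limits genes at each level was not tested. Thinning ended calls at low levels (Opn4) and at higher ones (Rplp0, 94.0 CPM in WT and 53.7 CPM in the libraries labelled KO under morphine).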
